A study of Mus musculus with 9 samples.

Results

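The genes described here encode 10 enzymes and helper proteins that process and cross-link collagen: Lox, Loxl1, Loxl2, Loxl3, Plod1, Plod2, P4ha1, P4ha3, Serpinh1 and Pcolce. They were chosen by symbol with earlier results of these data known, as were the other gene lists used below. Shares of all genes given beside the counts of these lists are therefore a description and no test. All 10 members matched 1 gene ID each among the 53465 in the count tables. The RNA is from NOD-SCID mouse hearts. NOD-SCID is an immunodeficient strain that lacks mature T and B cells and keeps macrophages. The 3 groups were hearts with sham surgery, hearts with coronary artery ligation, and hearts with coronary artery ligation that also received FOXO3-GE-MPCs implantation, called the cell group below, with 3 libraries in each. The labels give the infarct border zone as the source in all groups, the sham hearts included. They give no age, no sex, no time after ligation, no number of cells and no species of the cells. For cell replicates 2 and 3 the title and treatment fields name FOXO3, while the source field gives different FOXO numbers. The column headers of sham replicates 1 and 2 share a name stem, as do those of ligation replicates 2 and 3, and nothing says that replicates came from separate animals. P-values therefore measure the spread between these libraries, which may be technical in part.

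Collagen chains are modified inside the endoplasmic reticulum before they fold. Prolyl 4-hydroxylases, whose catalytic subunits include P4ha1 and P4ha3, hydroxylate prolines, which stabilises the triple helix. Lysyl hydroxylases such as Plod1 and Plod2 hydroxylate lysines, and Plod2 acts on the telopeptide lysines that later form stable cross-links. Serpinh1, also called HSP47, is a chaperone that binds the folded procollagen helix. After secretion, proteases of the Bmp1 and tolloid group cut off the C-propeptide, and Pcolce enhances that cut. The lysyl oxidases Lox, Loxl1, Loxl2 and Loxl3 then oxidise lysines in collagen and elastin to aldehydes that react into cross-links. In the infarcted heart this pathway builds the scar.

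Upstream sequences are shown for 3 members: P4ha1 and Pcolce, which both rose after ligation, Pcolce being also the member that passed in cells against ligation, and Serpinh1, which did not pass in either comparison. RefSeq's promoter table for build GRCm38.p6 held 5 of the 10 members (P4ha1, P4ha3, Pcolce, Plod1 and Serpinh1). Each sequence gives the 250 bases before the start in that table, 5′ to 3′ on the gene's strand: chr10:59323046-59323295 (+) for P4ha1, chr7:99353240-99353489 (-) for Serpinh1 and chr5:137611405-137611654 (-) for Pcolce. The Pcolce window lies inside the gene span of the GENCODE annotation, which starts further upstream. Capitals mark the core of the hypoxia response element, ACGTG or GCGTG, on either strand.
P4ha1: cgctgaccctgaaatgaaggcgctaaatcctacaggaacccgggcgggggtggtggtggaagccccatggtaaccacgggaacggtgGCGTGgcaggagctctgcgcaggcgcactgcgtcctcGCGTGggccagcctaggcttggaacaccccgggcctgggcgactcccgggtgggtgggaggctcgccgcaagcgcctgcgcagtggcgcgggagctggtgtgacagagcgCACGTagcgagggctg
Serpinh1: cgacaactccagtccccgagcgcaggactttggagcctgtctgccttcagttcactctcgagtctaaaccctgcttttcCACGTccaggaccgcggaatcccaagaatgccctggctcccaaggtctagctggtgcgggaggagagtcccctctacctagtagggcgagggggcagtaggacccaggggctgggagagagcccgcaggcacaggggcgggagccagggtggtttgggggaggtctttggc
Pcolce: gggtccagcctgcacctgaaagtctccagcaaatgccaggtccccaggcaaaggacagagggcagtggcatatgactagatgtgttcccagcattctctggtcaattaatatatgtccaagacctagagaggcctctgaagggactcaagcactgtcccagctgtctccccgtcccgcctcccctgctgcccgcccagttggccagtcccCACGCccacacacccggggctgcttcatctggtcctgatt
P4ha1 held 3 matches, Serpinh1, Pcolce and Plod1 held 1 each, and P4ha3 held none. Of 32851 mouse promoter windows of the same length, 38.6% held at least 1 match and 16.7% held 2 or more. For Plod1 the bases just after the start in that table were not found in a GENCODE transcript of the gene. A search for the paired heat shock element GAANNTTC, which reads the same on both strands, found no match in the 5 windows, against 6.69% of all windows. A match of letters is a description and not a measured binding site.

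In GENCODE's annotation of GRCm38, the build the submitters' processing notes call mm10, all 10 members are protein-coding. The lysyl oxidase genes lie at chr18:52516067-52529867 (Lox), chr9:58287738-58313186 (Loxl1), chr14:69609068-69695834 (Loxl2) and chr6:83034173-83052562 (Loxl3). The hydroxylase genes lie at chr4:147909753-147936767 (Plod1), chr9:92542223-92608428 (Plod2), chr10:59323296-59373304 (P4ha1) and chr7:100285520-100319699 (P4ha3). Serpinh1 lies at chr7:99345376-99353239 and Pcolce at chr5:137605103-137613784. Of the 31-base words in the transcripts of Loxl2, 46.4% also occur in other genes, mainly Gm21451 and Gm16867, so its count is uncertain to that extent. Both of those genes had 0 counts in all 9 libraries. For Loxl3, 11.6% of exon bases overlap Htra2 on the other strand. The strand setting of the counting is not given in the sources used here, so reads from that stretch cannot be told apart. Exon bases shared with other genes were 6.42% for Plod2, 5.70% for Loxl2, 2.93% for Pcolce and 0 for the other 6 members.

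Libraries held 4549268 to 7515052 gene counts, the lowest in ligation replicate 1. Levels are given as CPM, read counts scaled to library size with TMM factors, in which 3 counts equal 0.375 to 0.639 CPM. Markers of heart muscle were present at 39061 to 40726 summed CPM in sham hearts, 32908 to 33768 after ligation and 31792 to 32322 with cells. Genes were called at an adjusted p under 0.05 from edgeR's quasi-likelihood test, adjusted by the Benjamini-Hochberg method over all 13825 genes tested. Of the 7 heart muscle markers 1 was called higher and 5 lower in ligation than in sham, against 38.2% of all genes called. The log2 fold changes of these markers ran from -0.95 to 0.36. In bulk tissue, fewer cells of a type and less RNA per cell cannot be told apart.

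Of the 10 members, 9 passed the filter on low counts, with at least 7.83 CPM in every library, and P4ha3 did not. Levels of different genes are compared here as CPM per kilobase of exon. In sham hearts Serpinh1 was by far the highest at 147 ± 1.28 (SD, n = 3). Pcolce followed at 33.5 ± 3.02, Loxl1 at 28.1 ± 1.10, Plod1 at 23.0 ± 1.34 and P4ha1 at 19.9 ± 0.965. Well below these came Loxl2 at 6.51 ± 0.156, Plod2 at 5.73 ± 0.496, Lox at 3.45 ± 0.386, Loxl3 at 1.97 ± 0.243 and P4ha3 at 0.0885 ± 0.0790. No 2 neighbours in this order overlapped in their 3 sham libraries. The order depends in part on the length used: per kilobase of the longest transcript, a choice made after seeing the data, Plod1 (38.0 ± 2.21) stood above Loxl1 in sham and Plod2 (8.43 ± 0.730) above Loxl2. After ligation Lox, at 11.5 ± 0.351 CPM per kilobase of exon, was above Loxl2 at 9.01 ± 0.183, and by the longest transcript it was too, at 11.6 ± 0.353 against 9.16 ± 0.186. The place of Loxl2 in all of these orders is uncertain, since 46.4% of its 31-base words also occur in other genes. Lox was above Plod2 (9.14 ± 0.130) per kilobase of exon and below it (13.5 ± 0.192) by the longest transcript. P4ha1 was above Plod1 per kilobase of exon, at 30.3 ± 1.68 against 20.6 ± 0.879, and overlapped it by the longest transcript, at 30.9 ± 1.71 against 34.1 ± 1.45. Per kilobase of exon the neighbours Loxl1 and P4ha1 overlapped in ligation, as did Plod2 and Loxl2, and in the cell group Loxl1 and P4ha1 overlapped, as did Lox and Plod2.

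After ligation 7 of the 9 tested members rose, most of all the cross-linking enzymes Lox and Loxl3, which were about 3 times as high as in sham. One lysyl hydroxylase, Plod1, was slightly lower, and the chaperone Serpinh1 did not pass the test. Over all genes, 38.2% passed 0.05 in ligation against sham, 20.1% higher and 18.0% lower. The median log2 fold change of the 9 members was 0.51, from -0.16 to 1.74, against 0.01 for all genes tested. The CPM ranges of the groups did not overlap for 8 of the 9 members, against 47.6% of all genes. Library totals in place of TMM factors moved the median of all genes to 0.20, and the split among members was then 8 higher and 0 lower. Under that scaling 4966 of the 13825 genes were higher and 1346 lower, so that 78.7% of all calls were higher, against 52.7% with TMM.

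**Figure D1:**
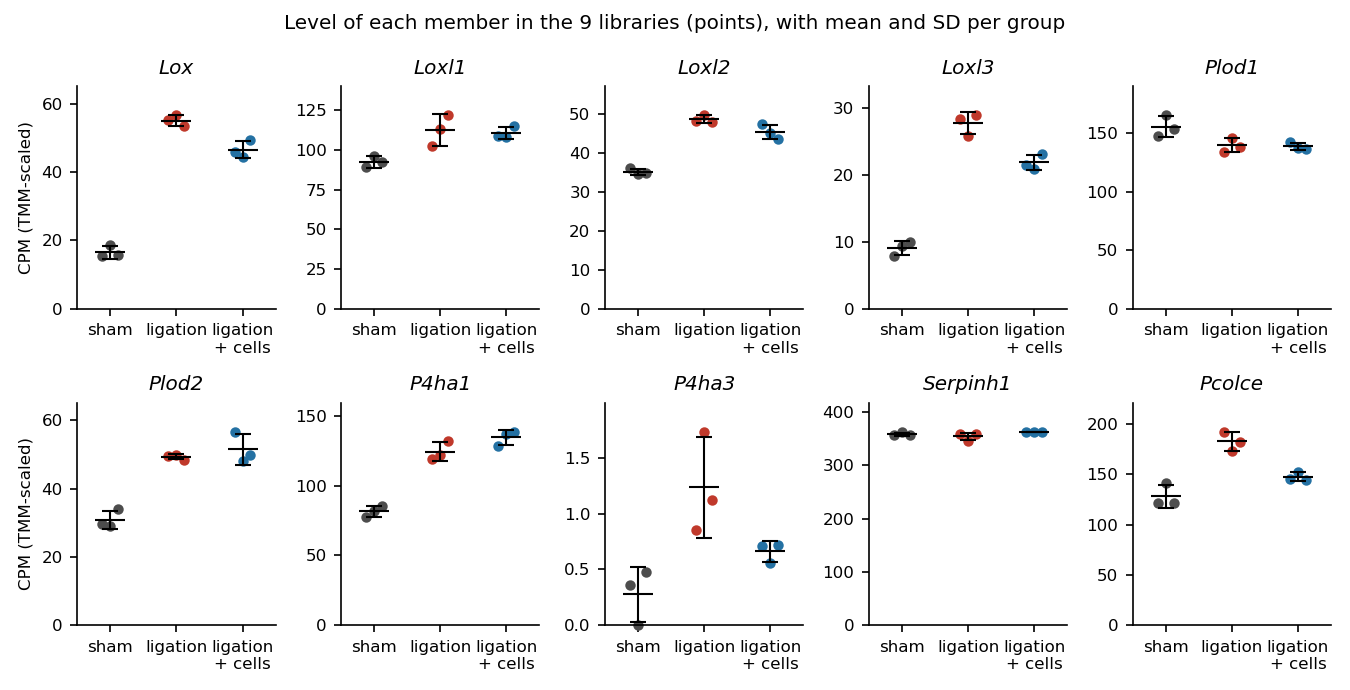
CPM after TMM scaling (y axis, linear from 0) of the 10 members in sham, ligation and ligation with cells; points are libraries, bars the mean and SD of 3. Lox and Loxl3 exceed sham 3.33-fold and 3.04-fold after ligation and 2.82-fold and 2.40-fold with cells, Serpinh1 between 346 and 363 CPM in all 9 libraries, and Pcolce lower with cells than with ligation alone.

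Among the intracellular hydroxylases, P4ha1 read 77.8, 81.9 and 85.7 CPM in sham, 120, 122 and 133 in ligation, and 129, 137 and 139 in the cell group. Every ligated library was above every sham library. P4ha1 rose 1.53-fold after ligation (log2 fold change 0.61, SE 0.0644, adjusted p 1.81e-07). The difference between cells and ligation was 0.11, with a 95% interval from -0.02 to 0.24 (adjusted p 0.295). P4ha3, a further catalytic subunit, had 2, 0 and 3 counts in sham, 4, 12 and 9 in ligation, and 5, 4 and 5 in the cell group. The sham counts are at or below the 3 counts taken as detectable and the others above it, and the gene did not pass the filter. With no filter on low counts P4ha3 passed in ligation against sham (log2 fold change 2.12, SE 0.780, adjusted p 0.0341) and not in cells against ligation (-0.91, SE 0.652, adjusted p 0.602).

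Plod2, the lysyl hydroxylase of the telopeptides, read 29.5, 29.2 and 34.0 CPM in sham, 49.6, 49.8 and 48.5 in ligation, and 56.7, 48.1 and 49.8 in the cell group. It rose 1.59-fold after ligation (log2 fold change 0.67, SE 0.0887, adjusted p 3.94e-06), and the ligated libraries did not overlap sham. Plod1, which hydroxylates lysines in the helix, went the other way, with 148, 166 and 153 CPM in sham, 134, 146 and 139 in ligation, and 142, 138 and 136 in the cell group. The highest ligation library lay just below the lowest sham library. Plod1 fell by 0.16 on the log2 scale (SE 0.0589, adjusted p 0.0434), a change that library totals alone turned to 0.03 (adjusted p 0.694). Its call was also lost without sham replicate 2 or 3, ligation replicate 1 or 3, or cell replicate 1 or 3, with adjusted p-values from 0.0550 to 0.178. Blocking on the replicate number gave an adjusted p of 0.0504, and leaving out the filter 0.0883.

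The chaperone Serpinh1 was the flattest member. It read 356, 362 and 357 CPM in sham, 359, 346 and 358 in ligation, and 363, 363 and 363 in the cell group. The log2 difference between ligation and sham was -0.02, with a 95% interval from -0.11 to 0.07 (adjusted p 0.799). With library totals alone this became 0.17 (adjusted p 0.00303), beside the median of 0.20 for all genes under that scaling. In cells against ligation it was 0.04, with an interval from -0.05 to 0.13 (adjusted p 0.689).

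Pcolce, the enhancer of propeptide removal, read 121, 141 and 121 CPM in sham, 193, 173 and 183 in ligation, and 145, 153 and 145 in the cell group. The 3 groups did not overlap, and the cell group lay between the others. Pcolce rose 1.43-fold after ligation (log2 fold change 0.51, SE 0.0653, adjusted p 2.51e-06). In the cell group it was 1.24-fold lower than in ligation (log2 fold change -0.31, SE 0.0642, adjusted p 0.00309). It stayed above sham, by 0.20 on the log2 scale (SE 0.0655, adjusted p 0.0166), and by 0.36 with library totals alone. The last call was lost without sham replicate 1, sham replicate 3 or cell replicate 2, with adjusted p-values of 0.0837, 0.0813 and 0.0581.

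**Figure D2:**
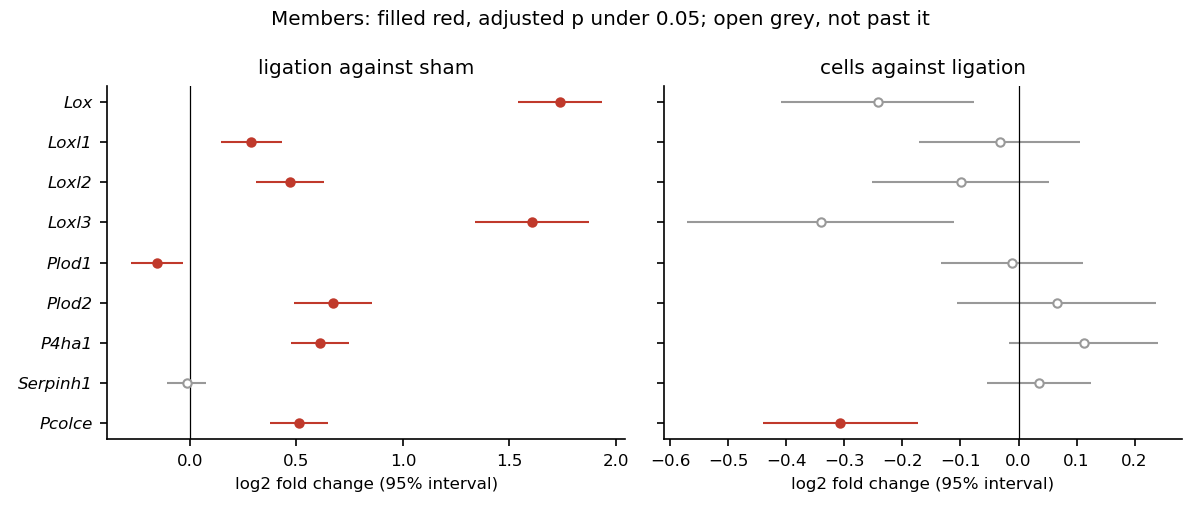
Log2 fold change with its 95% interval (x axis) for the 9 tested members, with ligation against sham on 1 panel and cells against ligation on the other; filled red points passed an adjusted p of 0.05. After ligation 7 members were higher and Plod1 lower, and with cells Pcolce passed at -0.31; both panels use the ligation libraries.

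The cross-linking enzyme Lox read 15.3, 18.6 and 15.6 CPM in sham, 55.2, 56.7 and 53.4 in ligation, and 45.8, 44.5 and 49.3 in the cell group. All ligated libraries stood far above sham, and the cell libraries lay below the ligation libraries. Lox rose 3.33-fold after ligation (log2 fold change 1.74, SE 0.0943, adjusted p 8.95e-12), the largest fold among the 9 members. In cells against ligation its log2 difference was -0.24, with a 95% interval from -0.41 to -0.08 and an adjusted p of 0.0603. Against sham the cell group was 2.82-fold higher (adjusted p 8.97e-11).

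Loxl3, a family member with scavenger receptor domains, had the same order of groups. Its CPM were 7.83, 9.39 and 10.001 in sham, 28.3, 25.9 and 29.0 in ligation, and 21.6, 20.9 and 23.2 in the cell group. It rose 3.04-fold after ligation (log2 fold change 1.61, SE 0.129, adjusted p 3.17e-09). Cells against ligation gave -0.34, with an interval from -0.57 to -0.11 and an adjusted p of 0.0551. The 2 differences between cells and ligation, of Lox and of Loxl3, passed 0.05 in some fits: at 0.0365 and 0.0376 with library totals alone, 0.0456 and 0.0365 with limma-voom, and 0.0488 and 0.0465 with only the 2 groups in the model. DESeq2's Wald test gave adjusted p-values of 0.191 and 0.177. Without sham replicate 1 that of Loxl3 was 0.0499. Htra2, whose exons overlap Loxl3, was at 20.3 ± 0.998 CPM in sham (SD, n = 3), 21.2 ± 0.601 after ligation and 22.4 ± 1.21 with cells.

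Loxl1 and Loxl2 rose less. Loxl1, which is known for its part in elastic fibre assembly, read 89.2, 96.4 and 92.1 CPM in sham, 102, 113 and 122 in ligation, and 109, 108 and 115 in the cell group. It rose 1.22-fold after ligation (log2 fold change 0.29, SE 0.0681, adjusted p 0.00204), and library totals alone gave 0.48. Loxl2, which also cross-links basement membrane collagen, read 36.1, 34.6 and 34.8 CPM in sham, 48.4, 49.8 and 47.9 in ligation, and 47.4, 45.2 and 43.6 in the cell group. It rose 1.38-fold (log2 fold change 0.47, SE 0.0768, adjusted p 5.40e-05), with the limit on shared sequence given above. Neither passed in cells against ligation, where Loxl1 gave -0.03 (interval -0.17 to 0.11) and Loxl2 -0.10 (interval -0.25 to 0.05).

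These unequal rises changed the makeup of the family. The measure is the share of each gene in the reads per kilobase of Lox, Loxl1, Loxl2, Loxl3 and Loxl4. Lox took 8.25%, 9.24% and 8.13% in the sham libraries, 19.6%, 19.2% and 17.3% in ligation, and 16.8%, 16.6% and 17.4% in the cell group. Loxl3 took 4.88% ± 0.524 (SD, n = 3) in sham, 9.76% ± 0.672 in ligation and 8.27% ± 0.225 with cells. Loxl1 remained the largest share in all 9 libraries, at 69.6% ± 0.199 in sham, 55.1% ± 2.43 in ligation and 58.3% ± 0.605 with cells. For Lox, Loxl1 and Loxl3 the exact two-sided permutation p was 0.1 in ligation against sham, the smallest that 3 against 3 libraries allow. In cells against ligation the exact permutation p was 0.2 for Lox, and 0.1 for Loxl1, whose share was higher with cells, and for Loxl3, whose share was lower. With the uncertain Loxl2 left out, Lox went from 10.2% ± 0.635 in sham to 21.9% ± 1.59 in ligation.

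**Figure D3:**
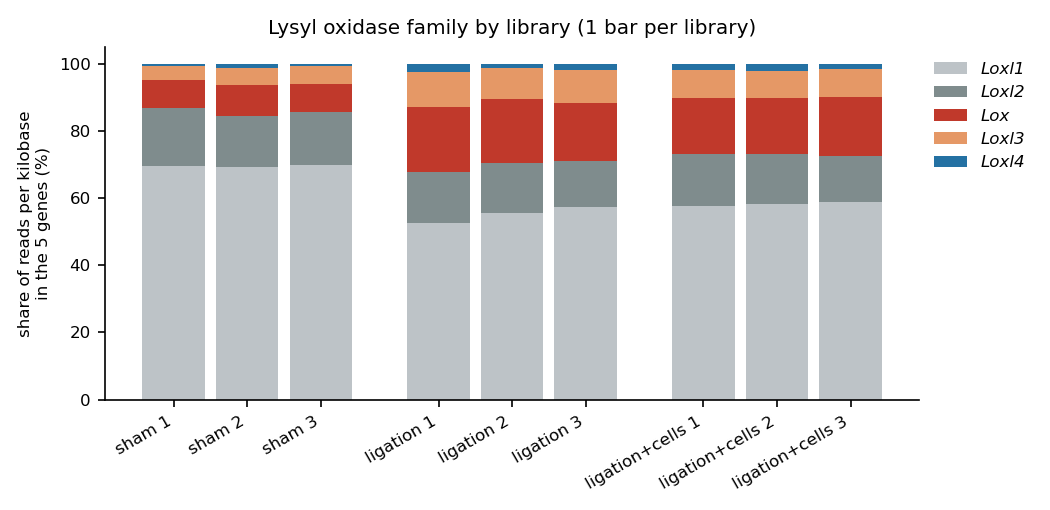
Share of each lysyl oxidase gene in the family's reads per kilobase (y axis, percent), 1 stacked bar per library. The Lox share is 8.13% to 9.24% in sham and 16.6% to 19.6% in the 6 ligated libraries, while Loxl1 takes the largest share in every bar.

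In cells against ligation 1 of the 9 tested members passed 0.05, Pcolce, which was lower, a share near the 9.87% of all genes called (4.19% higher and 5.69% lower). The median of the 9 was -0.03, against 0.00 for all genes tested. The groups' CPM did not overlap for 5 of 9 members, with Lox, Loxl2, Loxl3 and Pcolce lower and Serpinh1 higher, and for 27.2% of all genes. In cells against sham, 7 members were higher and Plod1 lower, against 40.9% of all genes called (21.0% higher and 20.0% lower). Plod1 there gave -0.17 (adjusted p 0.0280), -0.01 with library totals alone, and lost its call without sham replicate 2, cell replicate 2 or cell replicate 3 (adjusted p 0.122, 0.0668 and 0.0889) or with no filter (0.0551). The ligation libraries enter 2 of the 3 comparisons and the sham libraries 2, so the comparisons are not independent of each other.

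Markers of other cells moved beside Pcolce. All 7 macrophage and leukocyte markers were lower in the cell group than in ligation. Their summed level was 433 to 460 CPM in sham hearts, 824 to 867 after ligation and 339 to 357 with cells. The 8 fibroblast markers differed between cells and ligation by -0.11 to 0.09 on the log2 scale, and their summed level was 3861 to 4018 CPM in ligation and 3939 to 4040 in the cell group. Against sham, ligation had 4 of the 8 higher and 2 lower. Of 7 markers of activated fibroblasts, 6 were tested, and 4 were higher and 1 lower after ligation, with summed levels of 425 to 458 CPM in sham and 740 to 760 in ligation. With cells these summed to 677 to 721 CPM, 1 marker passing as higher and 1 as lower. All 5 mesothelial and epicardial markers were higher after ligation, with sums of 32.1 to 42.9 CPM in sham, 212 to 249 in ligation and 170 to 175 with cells. In ligation 6 of 7 endothelial markers and 4 of 6 smooth muscle and pericyte markers were lower than in sham, and 1 of each list was higher, Vwf by 0.23 and Cspg4 by 0.30 on the log2 scale. No list had a marker at 0 in all libraries. The part of these cell types in the members' values was not tested, and reads from implanted cells were not separated here.

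Of the 12 genes of fibrillar collagens and elastin, 10 were tested, and after ligation 7 rose and 1 fell, against 38.2% of all genes called. Their median log2 fold change was 0.95, against 0.51 for the 9 members and 0.01 for all genes. The gene that fell, Col5a3, a chain of type V collagen named here after its values were seen, gave -0.71 (SE 0.113, adjusted p 4.05e-05). Col1a1, a chain of type I collagen, went from 247 ± 7.94 to 557 ± 53.9 CPM (SD, n = 3) after ligation, and Col3a1, the chain of type III collagen, from 470 ± 5.77 to 1228 ± 30.7. Eln, which encodes elastin, was at 127 ± 9.22 in sham and 136 ± 2.26 in ligation (adjusted p 0.316). With library totals alone Eln passed in ligation against sham (0.28, adjusted p 0.00355) and in cells against sham (0.25, adjusted p 0.00892). The summed level of 11 fibrillar collagen genes was 1177 ± 21.2 CPM in sham, 2764 ± 113 in ligation and 2495 ± 34.9 with cells. Each member was set against that sum, as its CPM per 100 CPM of fibrillar collagen. Serpinh1 read 30.9, 30.5 and 29.98 in sham, 13.5, 12.5 and 12.4 in ligation, and 14.8, 14.6 and 14.3 with cells. Its ratio was lower in every ligated library, as was that of 89.5% of all genes in ligation against sham, while its own CPM differed by -0.02 on the log2 scale. Lox went the other way, at 1.33, 1.57 and 1.31 in sham, 2.08, 2.05 and 1.85 in ligation, and 1.86, 1.78 and 1.95 with cells.

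Against the collagen sum, 7 of 9 members were lower in ligation than in sham with no overlap between libraries. The same held for 89.5% of all genes tested, as the sum itself was higher, so that these 7 are no result about the members. Lox and Loxl3 were higher with no overlap, as were 1.73% of all genes. The log2 ratio difference between ligation and sham was 0.51 for Lox and 0.39 for Loxl3. It was -0.55 for Plod2, -0.62 for P4ha1, -0.71 for Pcolce, -0.76 for Loxl2, -0.95 for Loxl1, -1.25 for Serpinh1 and -1.39 for Plod1. In cells against ligation the ratio was higher with no overlap for 5 members (30.9% of all genes) and lower for Loxl3 and Pcolce (6.31% of all genes). With Col1a1 alone as denominator, cells against ligation gave 2 members higher (19.9% of all genes) and 1 lower (6.08% of all genes). In cells against sham 7 members were lower with no overlap (88.1% of all genes) and Lox higher (2.0% of all genes).

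**Figure D4:**
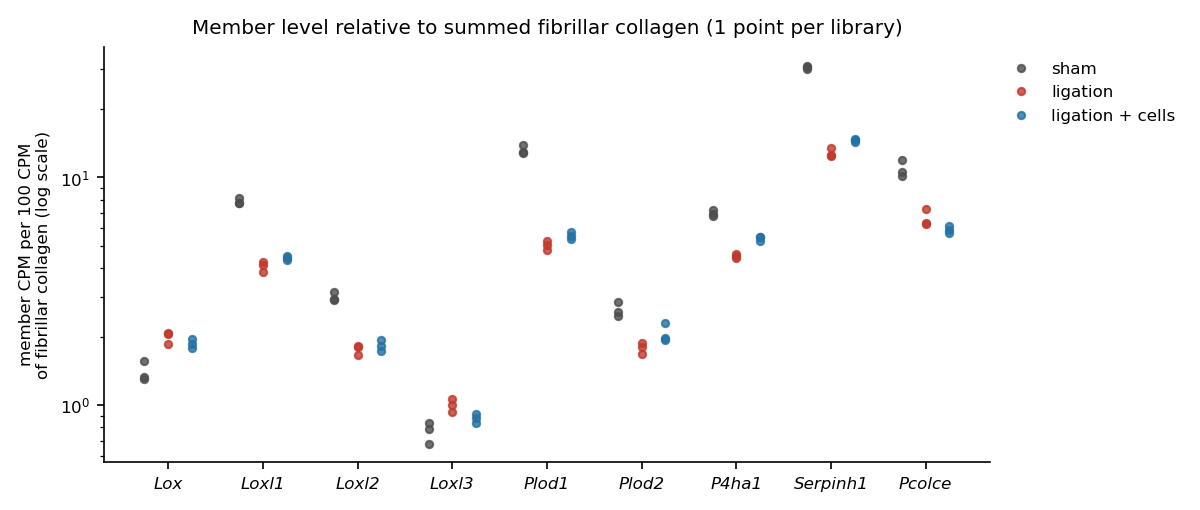
CPM of each tested member per 100 CPM of summed fibrillar collagen (y axis, log scale), 1 point per library, coloured by group. Lox and Loxl3 sit higher in ligation than in sham, and the other 7 members lower, as are 89.5% of all genes on this ratio.

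The rest of the pathway was read from a list of 34 other genes of collagen maturation, of which 33 matched an ID and 30 were tested. After ligation 19 rose and 1 fell, against 38.2% of all genes, with a median log2 fold change of 0.31. With library totals alone 24 were higher and 1 lower, beside the shift of all genes under that scaling given above. The largest changes were in Tll1, a tolloid protease that removes propeptides, Loxl4, P3h2, a prolyl 3-hydroxylase, and Adamts2, which removes the N-propeptide. Tll1 went from 0.952 ± 0.293 to 4.35 ± 0.358 CPM (SD, n = 3; log2 fold change 2.19, SE 0.375, adjusted p 9.01e-05), Loxl4 from 1.49 ± 0.856 to 4.74 ± 1.16 (1.63), P3h2 from 4.55 ± 0.336 to 13.5 ± 2.06 (1.57) and Adamts2 from 47.0 ± 1.74 to 107 ± 3.15 (1.19). Plod3 and P4ha2 complete the lysyl and prolyl 4-hydroxylase families. Plod3 gave 0.27 (adjusted p 0.0445), a call lost with DESeq2's Wald test (0.0647), with mitochondrially encoded genes removed (0.0562), with libraries of a shared header stem summed (0.0558), and without sham replicate 1 or 3 or any 1 of the ligation libraries. Its value was 0.16 without sham replicate 1, 0.42 without sham replicate 2 and 0.46 with library totals alone. P4ha2 gave 0.21 (adjusted p 0.0657), and passed with library totals alone (0.00105), with no filter (0.0311), without sham replicate 2 (0.0242) and without ligation replicate 1 (0.0340). Leaving out single libraries moved its value between 0.09 (without ligation replicate 3) and 0.28 (without sham replicate 2).

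In cells against ligation 2 of the 30 passed, against 9.87% of all genes. Fmod, which encodes fibromodulin, a small proteoglycan that binds collagen fibrils and lysyl oxidase, read 16.0, 14.3 and 14.1 CPM in sham, 23.2, 21.7 and 27.6 in ligation, and 35.3, 38.8 and 43.1 with cells. It rose again with cells, by 0.68 on the log2 scale (SE 0.109, adjusted p 0.000224). Tgm2, a transglutaminase that cross-links matrix proteins through glutamine and lysine, read 238, 248 and 240 CPM in sham, 370, 375 and 369 in ligation, and 320, 314 and 316 with cells. It fell by 0.23 with cells (SE 0.0443, adjusted p 0.00156). Colgalt2, Bmp1 and Pcolce2 are added here after their values were seen. Colgalt2, a collagen galactosyltransferase, was the gene that fell after ligation (-0.51, adjusted p 0.00177). Bmp1, the main procollagen C-proteinase, rose by 0.59 on the log2 scale and Pcolce2, the second enhancer of that enzyme, by 0.59. With cells Pcolce2 gave 0.00, with an interval from -0.17 to 0.18, where Pcolce gave -0.31. The difference between these 2 responses was not tested.

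**Figure D5:**
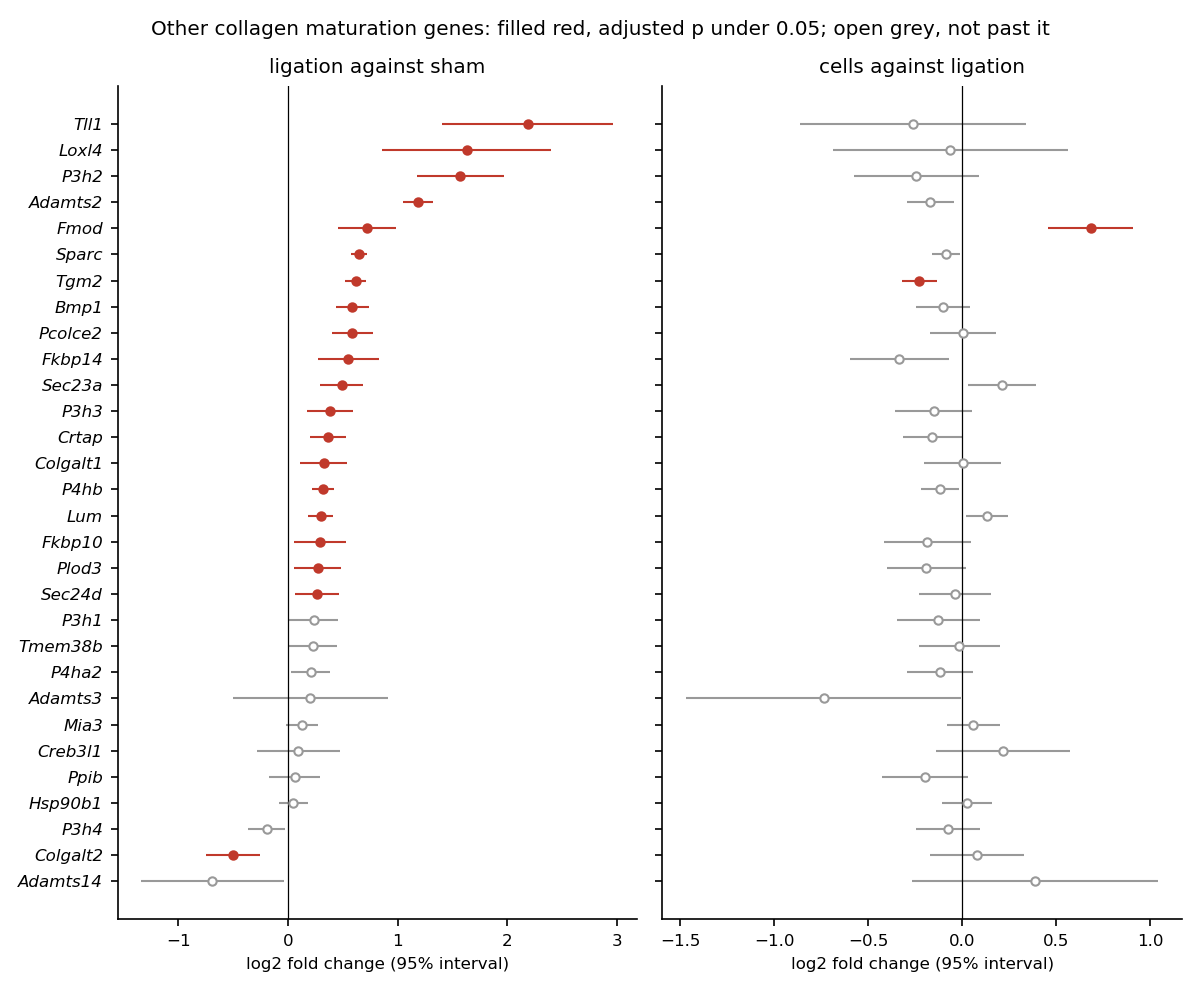
Log2 fold change with its 95% interval (x axis) for the 30 other collagen maturation genes tested, ordered by their change after ligation; filled red points passed an adjusted p of 0.05. After ligation 19 rose and Colgalt2 fell, and with cells Fmod was higher and Tgm2 lower.

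The profiles of the members over the 9 libraries were compared after scaling each log2 CPM profile to mean 0 and SD 1. Lox and Loxl3 were the closest pair, with a root mean square difference of 0.158. The member nearest to Loxl2 was Lox, at 0.233, and P4ha1 and Plod2 were each other's nearest member, at 0.298. Plod1 and Serpinh1 stood apart from the mean profile of the members, at 1.45 and 1.07, against 0.365 to 0.567 for the other 7. Outside the list, the genes nearest to the mean profile among 9405 candidates were Enpp1, Hipk2, Alpk3, Fkbp9 and Smad4, with differences of 0.338 to 0.346. Their log2 differences between ligation and sham were 1.74, 2.04, 0.93, 0.49 and 1.07 in that order. Their log2 differences between cells and ligation were 0.00, -0.19, -0.09, 0.01 and -0.10. This likeness is a description over libraries that share groups, and carries no test.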

How the data were processed

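Libraries were made from TRIzol-extracted total RNA with a NEBNext Ultra RNA kit, per the labels' protocols. Each library has 1 deposited table of unnormalised counts by gene. The build is mm10 per the submitters' processing notes; the aligner, the counter and its strand setting are not given in the sources used here. Rows that name no gene (reads outside genes, 4.14% to 4.91% of all, and ambiguous reads, 8.09% to 8.72%) were left out. Symbols, exon lengths and overlaps came from GENCODE M21 on GRCm38.

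Counts were fitted in R 4.3.3 with edgeR 4.0.16 (filterByExpr, TMM, glmQLFit, glmQLFTest; 1 mean per group, 9 libraries, 6 residual degrees of freedom), two-sided. CPM were computed here. The SE is the absolute log2 fold change divided by the square root of F. Alternatives used DESeq2 1.42.0, limma 3.58.1 (voom), other scalings and filters, 2-group fits, a replicate block, each library left out and, added after seeing the data, libraries with a shared header stem summed and levels by the longest transcript. On simulated data for ligation against sham with 13621 genes, 154 of 200 genes changed by 1 on the log2 scale were called with the right sign, together with 13 unchanged ones. In the real data far more genes were called and most members changed by less, so these counts do not carry over to it.

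Members and lists were chosen with earlier results of these data known. Named are all members and, from the list of other genes, those past 0.05 in cells against ligation, the 4 largest changes past 0.05 after ligation, and Loxl4, P4ha2 and Plod3, together with Col1a1, Col3a1, Eln and the 5 nearest profiles. Colgalt2, Bmp1, Pcolce2, Col5a3, Vwf, Cspg4, Postn and Acta2 fall outside this rule and were named after their values were seen. Replicate pairs differed by more than sampling noise (mean chi-square per gene 1.96 to 3.88), so all 9 libraries were kept. Depth limits genes of a few counts such as P4ha3; floors cover counting error only.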

Additional observations from a re-analysis of the deposited data

How the results depend on the processing

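Lox, Loxl2, Loxl3, Plod2, P4ha1, Pcolce and Loxl1 kept their direction and their call in ligation against sham in all 19 alternatives, as did Pcolce in cells against ligation. The count of members called in cells against ligation was 1, and 3 with library totals alone, with limma-voom and with only the 2 groups in the model; leaving out single libraries gave 1 to 2. With library totals alone 5 other collagen maturation genes passed there in place of 2, and Plod1 and Serpinh1 in ligation against sham became 0.0328 and 0.171. Differences between cells and ligation near 0 changed sign when 1 library was left out: Loxl4 became 0.0668 without ligation replicate 1 and 0.0668 without cell replicate 3, Plod1 0.0197 without ligation replicate 2 and 0.000241 without cell replicate 3, Loxl1 0.0320 and Eln 0.00858 without ligation replicate 3, Plod2 -0.00847 without cell replicate 1, and Eln 0.0752 without cell replicate 2. Serpinh1 in ligation against sham became 0.00282 without ligation replicate 2, and Plod3 in cells against sham -0.0290 without sham replicate 1 and -0.0289 without cell replicate 3. Plod1 in cells against ligation became 0.00129 with libraries of a shared header stem summed. Over the single libraries left out, the ranges were -0.252 to 0.0668 (Loxl4), -0.0391 to 0.0197 (Plod1), -0.0947 to 0.0320 (Loxl1), -0.0688 to 0.0752 (Eln), -0.00847 to 0.113 (Plod2), -0.0413 to 0.00282 (Serpinh1) and -0.0290 to 0.225 (Plod3). None of the values with a changed sign passed 0.05, except Serpinh1 with library totals alone. The cause was not tested. In a fit with a replicate block, 7, 1 and 8 members and 5134, 1230 and 5511 genes passed in the 3 comparisons (ligation to sham, cells to ligation, cells to sham), against 8, 1 and 8 members and 5277, 1365 and 5661 genes. Deviations of same-numbered libraries correlated at -0.123 to 0.144 across genes, and 4 of 9 libraries correlated best with their own number. With 3 libraries per group this check is weak, and it cannot tell whether the numbers stand for a pairing or a batch. Exon lengths from the longest transcript moved the shares of Loxl1 in sham and with cells and of Loxl3 in all 3 groups by more than 1 SD, and the rise of the Lox share by less.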
